A study of Mus musculus with 4 samples.

Results

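This account is about *Plagl1* and 9 other imprinted genes with roles in growth, *H19*, *Igf2*, *Igf2r*, *Dlk1*, *Peg3*, *Cdkn1c*, *Grb10*, *Mest* and *Ndn*, in the lenses of mice without S100A4. The genes were chosen by symbol, with the difference of *Plagl1* between *S100A4* null and WT libraries of this table already known, and 9 of the 10 were analysed here, out of 14924 genes in all. *Dlk1* was not analysed here. The question was whether the other imprinted growth genes moved with *Plagl1*. RNA was measured by mRNA-seq in 4 libraries, 2 of *S100A4* null lenses and 2 of lenses of wild type (WT) littermates. All mice were on a C57BL/6J background and 1 month old, no other allele or treatment is named in either group, and each library was a pool of 6 to 12 lenses. The *S100A4* null strain lacks the gene in the whole body, so tissues around the lens lacked it as well. Values are normalized expression values, in which the reads of a gene are scaled by 1 size factor per library. A single read counted for 0.856 and 1.01 in *S100A4* null and for 1.04 and 1.09 in WT. The libraries held 81602367 and 74108017 reads on genes in *S100A4* null and 70253985 and 68038158 in WT.

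The genotype labels and the tissue were checked first. *S100a4* itself had values of 14.6 and 18.2 in the *S100A4* null libraries (17 and 18 reads) and of 14420 and 14385 in the WT libraries. All 10 lens fiber markers listed were present in every library, with the highest values for *Cryaa*, the αA-crystallin gene, and none was called different between the groups. The 4 lens epithelium markers were present in every library too, with the highest values, not scaled by length, for *Pax6*, and none was called.

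Imprinted genes are read mainly from the copy inherited from 1 parent, and many of them promote or restrain growth before and after birth. *Plagl1*, also known as *Zac1*, codes for a zinc finger transcription factor read from the paternal copy, and it is a known member of a network of imprinted genes that are co-expressed in several tissues. Among the others, *Igf2*, *Dlk1*, *Peg3*, *Mest* and *Ndn* are read from the paternal copy, and *H19*, *Igf2r* and *Cdkn1c* from the maternal copy. *Grb10* is maternal in most tissues and paternal in neurons. The libraries were not split by parental allele, so all values are totals over both copies.

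The regulator comes first. *Plagl1* (ENSMUSG00000019817) lies on the plus strand of chromosome 10, from 13060504 to 13131694 on GRCm38. Its values were 116 and 80.1 in the *S100A4* null libraries and 14.6 and 29.6 in the WT libraries, from 136 and 79 reads against 14 and 27. Both *S100A4* null values lay above both WT values, and the 2 WT libraries differed from each other by 0.97 on the log2 scale, more than the 2 *S100A4* null libraries did (0.54). The means were 98.3 ± 25.7 (SD, n = 2) and 22.1 ± 10.6 (SD, n = 2), and the log2 fold change, on the log2(value + 1) scale, was 2.16 with a standard error of 0.33.

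*Igf2* (ENSMUSG00000048583) codes for insulin-like growth factor 2, a secreted growth factor of the fetus. It lies on the minus strand of chromosome 7, from 142650766 to 142666816. Its values were 64.2 and 93.2 in *S100A4* null and 15.7 and 27.4 in WT, from 75 and 92 reads against 15 and 25. The groups did not overlap, and within the *S100A4* null group the higher *Igf2* value was in the library with the lower *Plagl1* value. The log2 fold change was 1.85 with a standard error of 0.33. In GENCODE M21 the model *Gm49394*, on the same strand, overlaps 16048 bases of *Igf2*, and it was not analysed here. Overlapping models may share reads, and whether strand was used in the counting is not given, which limits the values of *Igf2* and, below, of *Igf2r*, *Mest*, *Ndn* and *Cdkn1c*. On the opposite strand *Gm32061* overlaps all 3694 bases of *Ndn* and *Gm44732* overlaps 892 bases of *Cdkn1c*, and neither was analysed here. The same limit holds for *Igf2os* over 7124 bases of *Igf2*, *Igf1os* over 5117 bases of *Igf1* and *Gm26906* over 3096 bases of *Meg3*, all on the opposite strand and not analysed here.

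*H19*, a non-coding RNA from chromosome 7 (142575529 to 142578143, minus strand), shares an imprinting control region with *Igf2* and is read from the other parental copy. Between the 2 genes lie 72622 bases. *H19* values were 19.7 and 27.4 in *S100A4* null and 25.1 and 16.4 in WT. The groups overlapped, and the log2 fold change was 0.19 with a standard error of 0.44, from 15 to 27 reads per library. At this depth only a large difference in *H19* was detectable. The means of *H19* were 23.5 ± 5.42 in *S100A4* null and 20.7 ± 6.11 in WT (SD, n = 2), and those of *Igf2* 78.7 ± 20.5 and 21.5 ± 8.28.

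The receptor and the inhibitors of growth follow. *Igf2r*, which binds IGF2 and carries it to the lysosome, had values of 2485 and 2553 in *S100A4* null and 2534 and 2546 in WT. *Cdkn1c*, which codes for the cell cycle inhibitor p57KIP2 that acts when lens cells leave the cycle to become fibers, had values of 10475 and 10739 against 10669 and 10741. *Airn*, on the opposite strand, overlaps 28354 bases of *Igf2r* and had values of 59.9 and 71.96 against 62.6 and 63.5. The groups overlapped for both genes, with log2 fold changes of -0.01 (standard error 0.06) for *Igf2r* and -0.01 (standard error 0.04) for *Cdkn1c*. *Grb10*, an adaptor protein that dampens signaling from the insulin and IGF1 receptors, had values of 137 and 141 in *S100A4* null and 75.2 and 71.2 in WT. The 2 libraries of each group lay close together here and the groups stood apart. The log2 fold change of *Grb10* was 0.92 with a standard error of 0.20, which left it under the 2-fold limit of a call.

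The 3 remaining paternal genes had values over 1000 in every library. *Mest*, a hydrolase-like protein of the endoplasmic reticulum, had values of 1626 and 1532 in *S100A4* null and 1285 and 1343 in WT, a log2 fold change of 0.26 with a standard error of 0.07. *Copg2*, on the opposite strand, overlaps 912 bases of *Mest* and had values of 1327 and 1425 against 1441 and 1527. *Peg3*, a large zinc finger protein, had values of 1149 and 1242 against 1053 and 1122, a log2 fold change of 0.14 with a standard error of 0.07. *Ndn*, the growth-suppressing protein necdin, had values of 4963 and 5244 against 4904 and 4757, a log2 fold change of 0.08 with a standard error of 0.05. In all 3 genes both *S100A4* null values lay above both WT values, by small margins.

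**Figure D1:**
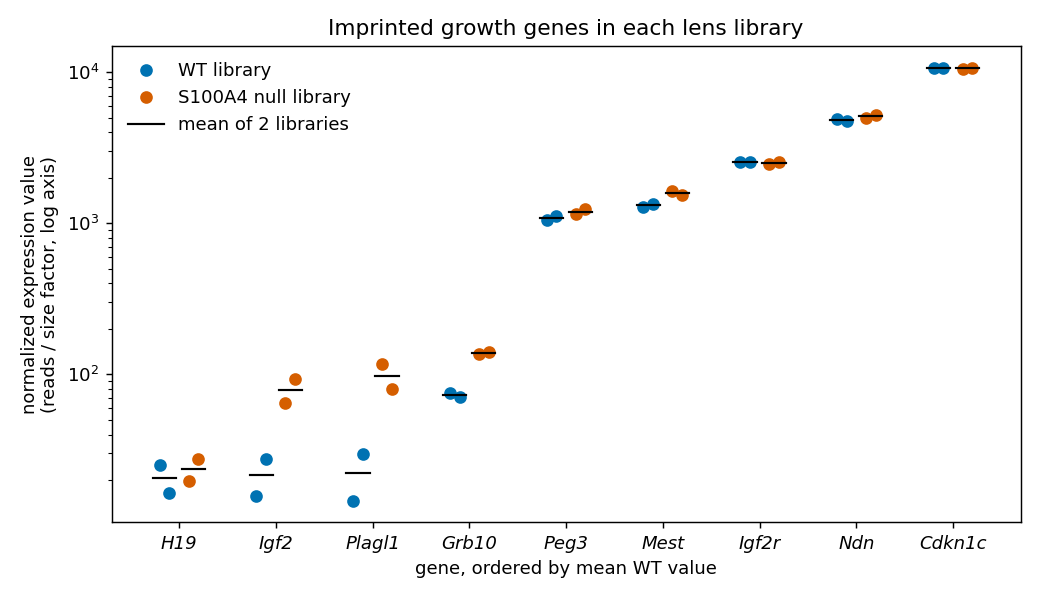
Normalized expression value (log axis) of 9 imprinted growth genes in 2 WT and 2 S100A4 null lens libraries, with points for libraries and a black line for the mean of each pair. Igf2 and Plagl1 stand well apart between the groups, Grb10 by a little under 2-fold, and the 5 abundant genes and H19 lie close together.

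A call required a change of at least 2-fold and an adjusted p of at most 0.05 in limma over all genes. By this rule 2 of the 9 genes, *Plagl1* and *Igf2*, were called higher, and none was called lower. Under limma without the trend none of the 9 was called. Over the 14780 genes tested, 3.65% were called higher and 0.0744% lower. With the adjusted p alone 4 of the 9 were called higher, the additional ones being *Grb10* and *Mest*, against 5.62% of all genes, and none was lower, against 1.33%. Both *S100A4* null values lay above both WT values for 6 of the 9 genes, against 23.7% of all genes, and below for none, against 23.2%. The median log2 fold change was 0.19 over the 9 genes, 0.16 over the 8 genes other than *Plagl1* and -0.01 over all genes tested. As each library was left out in turn, the median over the 9 genes lay between 0.080 and 0.23. The list was drawn up for this same contrast, so these counts describe the genes and test nothing. All 9 passed the filter on low values, which asked for 10 or more in any 1 of the 4 libraries. Leaving out the first *S100A4* null library left none of the 9 called, and leaving out the second left 1, *Plagl1*, with the remaining library assumed to vary like the other group. *Plagl1* then had log2 fold changes between 1.67 and 2.64 over the 4 libraries left out in turn, and *Igf2* between 1.47 and 2.23.

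Levels can be compared between genes only per length of exon, and on that scale the 9 genes covered a wide range. In WT lenses *Cdkn1c* led with a value of 5250 ± 24.9 per kilobase of exon (SD, n = 2), above 98.9% of all genes. *Ndn* followed at 1308 ± 28.1, then *Mest* at 333 ± 10.4, *Igf2r* at 273 ± 0.872 and *Peg3* at 81.6 ± 3.70 per kilobase, each with a range that did not reach the next. The remaining 4 were low. *H19* stood at 8.43 ± 2.48 and *Grb10* at 8.05 ± 0.312 per kilobase, with overlapping ranges. *Igf2* at 3.76 ± 1.45 and *Plagl1* at 2.83 ± 1.35 per kilobase overlapped as well, and *Plagl1* lay above only 7.62% of all genes. In *S100A4* null lenses the first 5 genes kept their order, while *Grb10* (15.3 ± 0.300), *Igf2* (13.8 ± 3.58) and *Plagl1* (12.6 ± 3.29) all had higher levels per kilobase than *H19* (9.57 ± 2.20) on average. In the second *S100A4* null library *Plagl1* (10.2) lay below *H19* (11.1), so the ranges of these 2 genes overlapped, as did those of *Igf2* and *Plagl1*. The *Grb10* values in *S100A4* null (15.1 and 15.5) lay within the range of *Igf2* (11.2 to 16.3). Both called genes therefore remained far under the level of *Cdkn1c*, *Ndn* or *Mest* in either group.

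The wider set of imprinted genes held 52 further genes known to be imprinted in at least 1 mouse tissue, of which 33 were analysed and 32 tested. The gene left out by the filter was *Usp29*, with values of 8.56 and 7.09 in *S100A4* null and 3.13 and 4.38 in WT. Of the 32, 4 were called higher in *S100A4* null lenses, none was called lower and 28 were not called, against 3.65% of all genes higher. The 4 calls became 0 without the first *S100A4* null library, 2 without the second and 1 under limma without the trend. The median log2 fold change was -0.01, the same as over all genes tested at this rounding. Of the genes listed as paternally read 3 of 14 tested were called higher, and of those listed as maternally read 1 of 17. Whether they are imprinted in the lens was not analysed here. Neither share was tested against the other.

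*Rasgrf1*, a Ras exchange factor, had values of 48.8 and 48.6 in *S100A4* null and 8.35 and 12.0 in WT (log2 fold change 2.17, standard error 0.43, adjusted p = 0.000417 by limma). *Nap1l5*, a nucleosome assembly protein family member, had values of 95.1 and 74.0 against 25.1 and 15.3 (log2 fold change 2.04, standard error 0.33, adjusted p = 1.69e-05 by limma). *Nap1l5* lies inside *Herc3* on the opposite strand, and *Herc3* was not called, with values of 485 and 496 against 486 and 464. *Dio3*, which inactivates thyroid hormone, had values of 187 and 172 against 48.0 and 88.7 (log2 fold change 1.44, standard error 0.22, adjusted p = 6.73e-06 by limma). *Meg3*, a maternally read non-coding RNA from the cluster that holds *Dlk1*, had values of 408 and 375 against 185 and 192 (log2 fold change 1.05, standard error 0.13, adjusted p = 4.82e-08 by limma). In these 4 genes the lower *S100A4* null value exceeded the higher WT value.

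The 3 genes of the wider set with the highest mean values were not called. *Gnas*, which codes for the stimulatory G protein subunit and for several imprinted transcripts, had values of 71908 and 69583 in *S100A4* null and 73075 and 71960 in WT. *Nap1l4*, a histone chaperone, had values of 32996 and 32196 against 33965 and 33184. *Nnat*, the small membrane protein neuronatin, had values of 6157 and 6445 against 8364 and 8260. The log2 fold change of *Nnat* was -0.40 with a standard error of 0.05, an adjusted p of 2.81e-08 by limma and a change short of 2-fold. It was the 1 gene of the set that passed the adjusted p on the lower side. All genes called in the set had mean WT values between 10.2 and 188, not scaled by length. With a mean WT value of 200 as a divide, which was chosen after the values were seen, none of 19 imprinted genes above it and 4 of 13 up to it were called. For the 9 growth genes the counts were none of 5 and 2 of 4, and over all genes tested 0.444% above and 8.23% up to the divide were called.

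Signaling by insulin-like growth factors, the pathway that *Igf2*, *Igf2r* and *Grb10* belong to, was covered by 20 listed genes, of which 19 were tested. In *S100A4* null lenses 3 of them were called higher, none was called lower and 16 were not called, against 3.65% of all genes higher. The median log2 fold change of the 19 was 0.05 (-0.01 over all genes). The 3 were among 9 genes with a mean WT value up to 200, and none of the 10 above it was called, beside 8.23% and 0.444% of all genes. The ligand *Igf1* had values of 104 and 93.2 in *S100A4* null and 13.6 and 33.9 in WT (log2 fold change 2.14, standard error 0.33, adjusted p = 8.66e-06 by limma). Its log2 fold change lay between 1.51 and 2.77 as each library was left out in turn. The genes of 2 secreted IGF binding proteins rose as well. *Igfbp2* had values of 258 and 270 against 61.6 and 71.2 (log2 fold change 1.98, standard error 0.18, adjusted p = 4.62e-11 by limma). *Igfbp4* had values of 470 and 483 against 124 and 143 (log2 fold change 1.83, standard error 0.13, adjusted p = 8.69e-14 by limma). For each of the 3 genes the groups were well apart, and the spread in WT was widest for *Igf1*.

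The receptors and the members with the highest values were not called. *Igf1r*, the receptor of both ligands, had values of 1372 and 1236 in *S100A4* null and 1148 and 1120 in WT, and *Insr*, the insulin receptor, 1819 and 1748 against 1705 and 1735. *Igfbp7*, the gene of the list with the highest values, had values of 47777 and 48907 against 50842 and 50148. *Igfbp5* had values of 5848 and 6367 against 6631 and 7070, with a log2 fold change of -0.17, a standard error of 0.05 and an adjusted p of 0.0329 by limma, short of 2-fold. *Irs1*, the adaptor under both receptors, had values of 4858 and 4295 against 4452 and 4463. *Igf1*, like *Igf2*, was not called without either *S100A4* null library or under limma without the trend, and *Igf1r*, *Insr* and *Igf2r* had WT values over 1000.

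**Figure D2:**
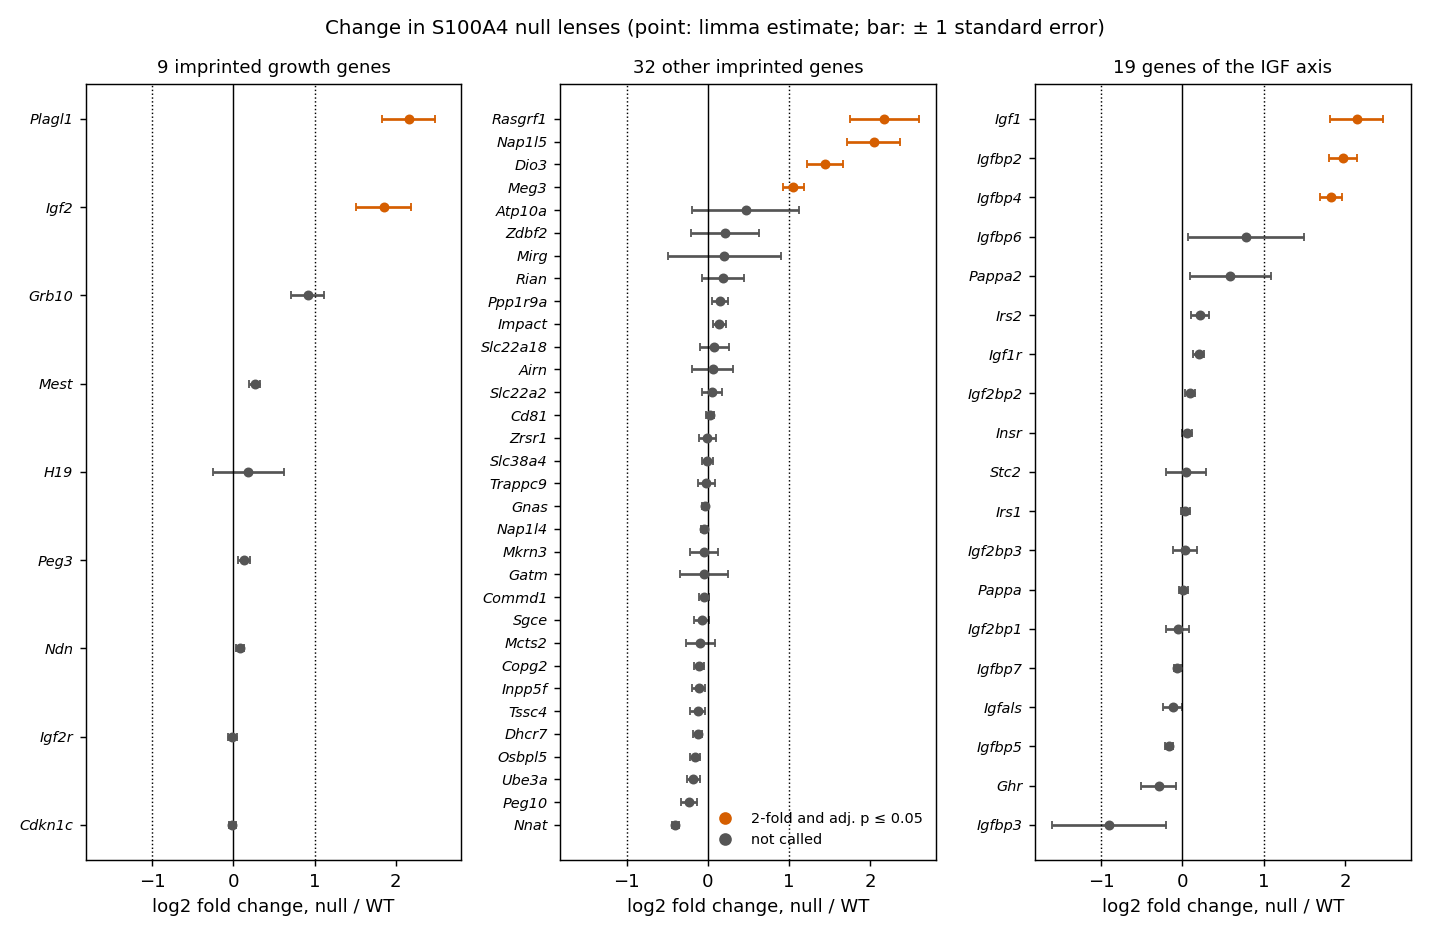
Log2 fold change of S100A4 null over WT lenses for 9 imprinted growth genes, 32 other imprinted genes and 19 genes of the IGF axis. Points are limma estimates, bars are 1 standard error to each side, dotted lines mark 2-fold, and orange marks the 2, 4 and 3 genes called.

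The relatives of *Plagl1* and a short list of its targets, drawn only from outside the imprinted growth genes, were looked at by value. *Plag1*, a growth-promoting zinc finger factor of the same family, had values of 265 and 169 in *S100A4* null and 167 and 176 in WT, and *Plagl2* 1560 and 1475 against 1475 and 1458. The groups overlapped for *Plag1*, where the first *S100A4* null library stood above the other 3, and neither gene was called. Of 4 genes listed as targets of *Plagl1*, only *Tcf4* was analysed, with values of 1306 and 1202 against 1332 and 1397 (log2 fold change -0.12, standard error 0.07, not called).

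The genes most like *Plagl1* over the 4 libraries were found by the distance between profiles of log2(value + 1), each centred on its own mean, among 11339 genes whose mean value was 50 or more. The 5 nearest were *Fbln5* (distance 0.11) and *Fbln2* (0.26), which code for fibulins of the extracellular matrix, *Ppp1r1b* (0.32), which codes for the phosphatase regulator DARPP-32, *Igf1* (0.34), and *Prex2* (0.35), a Rac exchange factor. *Fbln5* had values of 140 and 104 in *S100A4* null and 18.8 and 35.0 in WT. None of the other imprinted growth genes was among the 5 nearest. Out of the 11339, *Igf2* ranked 105th at a distance of 0.83, *Grb10* 296th, *Mest* 883rd, *Peg3* 1886th and *Ndn* 3292nd. *Igf2r* and *Cdkn1c* stood at 2.31 each, at ranks 5457 and 5464. *H19*, whose mean value was under 50, lay farthest from *Plagl1* at 2.36. Nearness was computed over the same 4 libraries as the comparison of groups, so it is a description and no test.

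**Figure D3:**
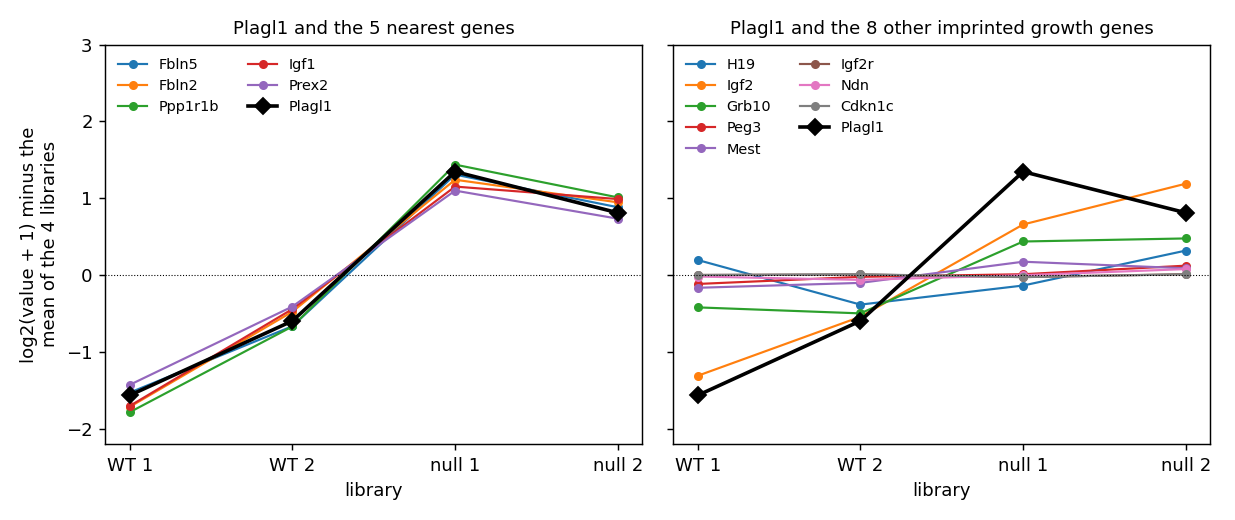
Centred log2(value + 1) of Plagl1 (black diamonds) with its 5 nearest genes (left) and with the 8 other imprinted growth genes (right) in each library, with lines only to join the points of 1 gene. The 5 nearest genes lie close to Plagl1 in all 4 libraries, Igf2 shares its order of WT libraries but not of S100A4 null libraries, and the abundant genes stay near 0.

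Imprinted genes often lie in clusters, and the genes around *Plagl1*, *Igf2*, *Meg3* and *Grb10* were followed over 1000 kb to each side of their starts, beside 3.65% of all genes called higher and 0.0744% lower. The surroundings of *Nap1l5* and *Rasgrf1* were not analysed here. None of the 11 genes tested around *Plagl1* was called, and their median log2 fold change was -0.002. None of the 21 around *Igf2*, *H19* and *Cdkn1c* among them, was called, with a median of 0.02. The largest estimate there was that of *Trpm5*, 1.78 with a standard error of 0.58 and an adjusted p of 0.0555 by limma, named here after its value was seen. Around *Meg3* 1 of 11 was called, *Dio3*, which belongs to the same imprinted cluster and lies 738 kb away. *Rian*, another non-coding RNA of that cluster and 62.9 kb from *Meg3*, had values of 80.5 and 54.7 in *S100A4* null and 56.4 and 60.2 in WT and was not called. *Mirg*, from the same strand of the cluster, had values of 6.85 and 11.1 against 7.31 and 7.66. *Grb10* had 5 tested neighbours, none of them called.

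**Figure D4:**
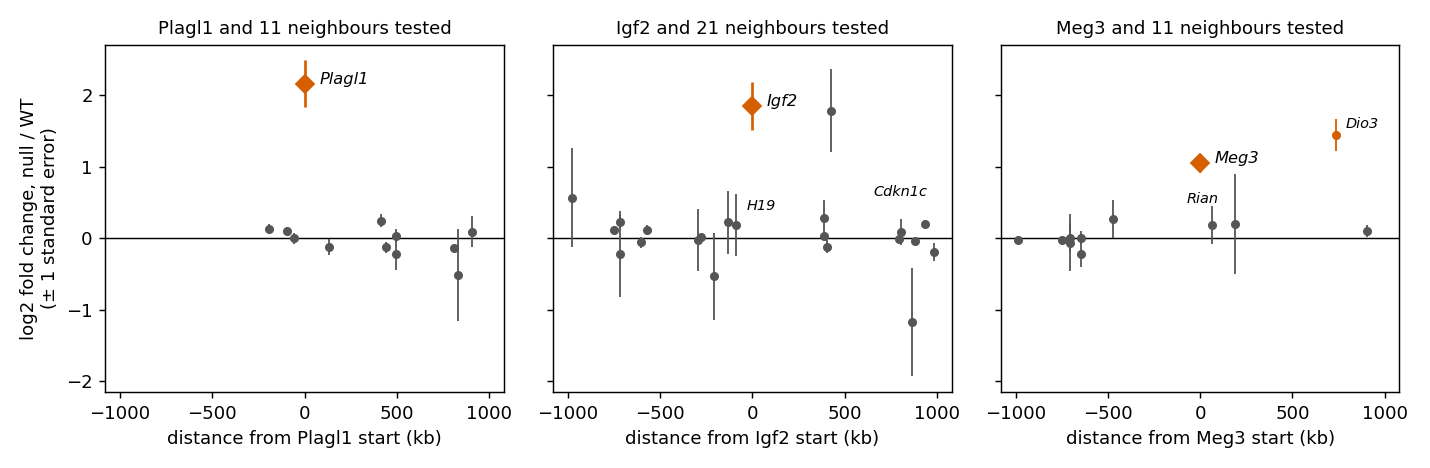
Log2 fold change (1 standard error to each side) of genes within 1000 kb of the starts of Plagl1, Igf2 and Meg3, against distance in kb, with orange for genes called. The diamonds of Plagl1 and Igf2 stand above all neighbours tested, with the uncalled Trpm5 (1.78) close under Igf2 (1.85), and Dio3 stands above Meg3.

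Promoter sequences are shown for *Plagl1* and *Igf2*, the genes that differed most, and for *Peg3*, the only one of the 7 genes with windows that matched the core of the site that PLAGL1 is known to bind. They come from RefSeq windows on GRCm38.p6 of 250 bases before to 50 bases after a start site, and 7 of the 9 genes had at least 1 window, 13 in all. Of the 13 windows 11 held more CpG than the median of 7 over all 32851 windows, with 2 *Mest* windows that are nearly the same sequence, shifted by 3 bases, counted separately. The *Plagl1* window held 26, more than 83.1% of windows, one *Grb10* window 45, more than 98.1%, and the 4 *Igf2* windows between 2 and 24. The reads are summed over each gene, so the start sites in use were not told apart. The stretches below stop where an annotated exon of the gene begins within the window, or at the start site. Those of *Plagl1* and *Igf2* lie before internal starts, downstream of the outermost annotated start of each gene, and that of *Peg3* lies before the gene. They are written 5′ to 3′ on the strand of the gene, and have each CpG in capitals in the first pair and the motif in capitals in the third. They lie at chr10:13090582-13090690 on the plus strand for *Plagl1*, and on the minus strand at chr7:142657497-142657746 for the most downstream start of *Igf2* and at chr7:6730432-6730669 for *Peg3*.
Plagl1: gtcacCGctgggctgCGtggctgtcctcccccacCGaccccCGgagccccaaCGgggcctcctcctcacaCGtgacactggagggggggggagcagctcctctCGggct
Igf2: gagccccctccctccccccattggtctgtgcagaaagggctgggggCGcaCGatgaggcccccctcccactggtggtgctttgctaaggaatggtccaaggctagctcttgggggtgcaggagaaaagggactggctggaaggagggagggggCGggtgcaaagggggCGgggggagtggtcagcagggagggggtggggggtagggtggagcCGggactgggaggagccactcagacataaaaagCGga
Peg3: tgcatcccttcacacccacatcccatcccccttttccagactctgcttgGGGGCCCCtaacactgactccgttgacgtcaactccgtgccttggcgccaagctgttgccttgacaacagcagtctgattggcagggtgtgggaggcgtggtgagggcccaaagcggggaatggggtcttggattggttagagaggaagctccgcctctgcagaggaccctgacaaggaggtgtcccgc

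The motif GGGGCCCC, which reads the same on both strands, was found in 1.08% of all windows and in 1 of the 13, that of *Peg3*. A match is a string of letters in this window only. The gene with the match, *Peg3*, had a log2 fold change of 0.14. The genes with windows but no match had 2.16 (*Plagl1*), 1.85 (*Igf2*), 0.92 (*Grb10*), 0.26 (*Mest*), 0.08 (*Ndn*) and -0.01 (*Igf2r*).

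Some markers of cells other than lens cells were called higher like *Plagl1* and *Igf2*, and the counts of each list are given here, beside 3.65% of all genes called higher (8.23% called with a mean WT value up to 200). Fewer or more cells of a type and less or more RNA per cell cannot be told apart in pooled lenses. All 7 rod photoreceptor markers listed were called higher, with sums of 6475 and 6383 in *S100A4* null and 1482 and 1570 in WT, a ratio of 4.21. The largest part of the sum (51.4%) came from *Gnat1*, which codes for a subunit of rod transducin, with values of 3339 and 3327 against 736 and 782. All 5 pigment cell markers were called higher, with sums of 1177 and 1230 against 174 and 261, a ratio of 5.54. *Dct* took the largest part of the sum over the 4 libraries (43.6%), although in both WT libraries *Tyrp1* had the larger value. Over the same libraries the ratios of means were 4.45 for *Plagl1*, 3.66 for *Igf2* and 1.90 for *Grb10*.

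The other lists were mixed. Of 7 Müller glia markers 4 were called higher, and their sums of 94196 and 95739 in *S100A4* null against 82653 and 83570 in WT were mostly *Dkk3* (88.3%), which was not called. Of 5 macrophage markers 4 were called higher, with sums of 281 and 225 against 99.2 and 79.9 and with *Csf1r* as the largest part (33.8%). Of 6 endothelial markers analysed 2 were called higher, with sums of 425 and 422 against 160 and 186 and with *Flt1* as the largest part (51.4%). Of 4 red cell markers 1, *Hbb-bs*, was called higher, with sums of 257 and 237 against 151 and 86.5. None of 6 markers of mural cells and fibroblasts was called, with sums of 3635 and 3646 against 3312 and 3391, mostly *Pdgfrb* (65.9%). The lens fiber sums were 0.946 times and the lens epithelium sums 0.967 times those of WT, with none of their 10 and 4 genes called. No marker analysed was at 0 in any library, and *Emcn*, *Lum* and *Hbb-b1* were not analysed here. Their part in the values of *Plagl1*, *Igf2* and the other genes called was not tested.

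**Figure D5:**
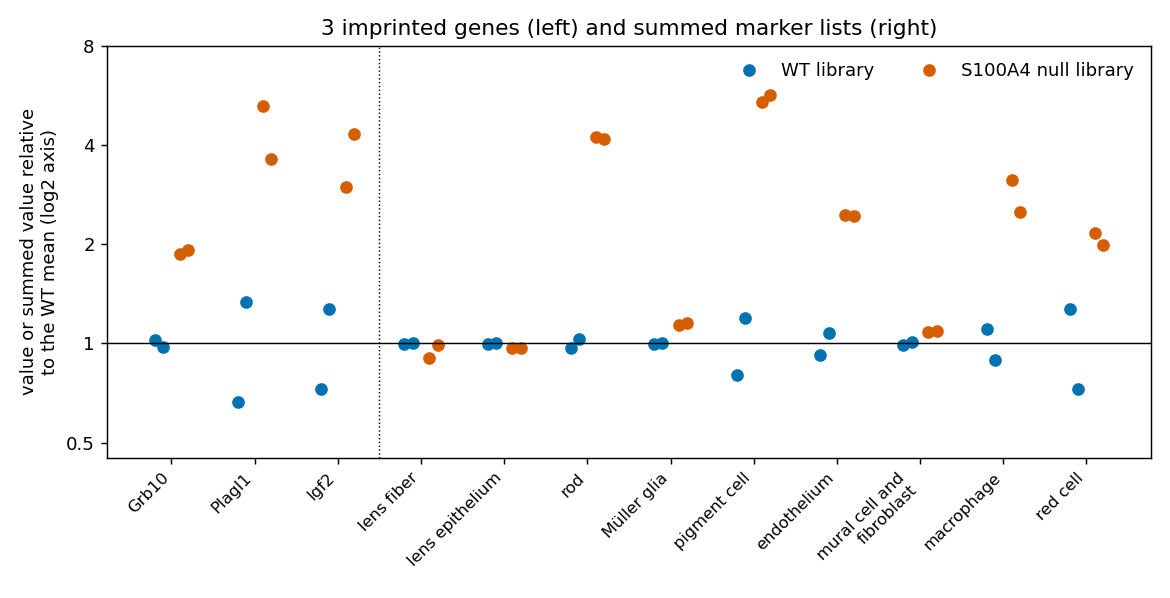
Values of Grb10, Plagl1 and Igf2 (left of the dotted line) and summed values of 9 marker lists (right) in each library, relative to the WT mean, on a log2 axis. Mean ratios to WT are 4.45 for Plagl1, 3.66 for Igf2 and 1.90 for Grb10. The summed values have ratios of 5.54 (pigment cells), 4.21 (rods), 2.82 (macrophages), 2.45 (endothelium) and 2.08 (red cells). Müller glia stand at 1.14, mural cells and fibroblasts at 1.09, lens epithelium at 0.967 and lens fibers at 0.946.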

How the data were processed

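The groups and replicate numbers come from the sample labels. Per the labels and the study's methods, the authors made stranded mRNA libraries, used Trim Galore for trimming, STAR for mapping (GRCm38v73, mm10), HTSeq for counts of uniquely mapped reads per gene and DESeq2 for normalization, and left out genes under 10 reads in all libraries; versions and the strand setting of the counting are not given in the sources used here. The signal values the authors deposited are counts divided by 1 size factor per library, not by length. All values (100.0%) were whole multiples of 1 read within 0.01 read, so reads were recovered. A count of 0 allows up to 3 reads, which covers counting error only. Symbols matched 14782 of 14924 identifiers, and coordinates, overlapping models and exon lengths come from GENCODE M21. The authors used GRCm38v73, so exon lengths, and with them levels per kilobase, may differ from those of their annotation. Whether the overlapping models were part of their counting was not checked.

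Groups were compared with limma (3.58.1, R 4.3.3; lmFit, eBayes with trend) on log2(value + 1) over 14780 genes that reached a value of 10 in any library, with Benjamini-Hochberg adjustment, and called at 2-fold and adjusted p of at most 0.05. edgeR (4.0.16, quasi-likelihood) and DESeq2 (1.42.0) on recovered reads were alternatives, and edgeR called 553 genes higher and 11 lower. In simulated data of this comparison (14381 genes, 200 of mean value of at least 50 changed), limma made 201 calls, 200 of them true. The folds given to these 200 genes are not listed here. Recovery of genes of lower mean value, such as *Rasgrf1* (means of 48.7 in *S100A4* null and 10.2 in WT), was not tested. Figures used matplotlib 3.10.9. The 9 genes and all lists were chosen with earlier results of these data known. Genes named are the 9, *S100a4*, called genes and the 3 of highest mean value of each other list, the marker of highest mean value in each marker list, and the 5 genes nearest to *Plagl1*. Others (*Igf1r*, *Insr*, *Usp29*, *Herc3*, *Airn*, *Copg2*, *Tyrp1*, *Rian*, *Mirg*, *Trpm5*) were added after their values were seen. Overlapping models and listed markers that were not analysed are named without values. Libraries are separate pools. As a check for repeat deposits of 1 library, the replicates were compared with sampling noise (median chi-square per gene 1.36 and 1.06, against 0.455 for noise alone), and each was counted as 1 sample. Pools may share litters, which the labels do not say, so p-values rest on the spread between these pools. In limma the variance of each gene was moderated toward that of genes of similar level. The standard errors and p-values of a gene are therefore partly borrowed from other genes, and do not measure the spread of that gene alone.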

Additional observations from a re-analysis of the deposited data

How the results depend on the processing

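The calls fell most under limma without the trend and without an *S100A4* null library, whereas edgeR and DESeq2 each gave 2, 4 and 3 higher calls in the imprinted growth genes, the wider imprinted set and the IGF axis. The 9 imprinted growth genes had 2 calls, 0 under limma without the trend, 0 and 1 without the first and second *S100A4* null library (range 0 to 2 over libraries left out), and 4 without the fold threshold. Their median log2 fold change was 0.19 and ranged from 0.080 to 0.23 over libraries left out. The wider imprinted set went from 4 higher calls to 1 under limma without the trend and to between 0 and 4 over libraries left out, and from 0 lower calls to 1 without the fold threshold. The IGF axis had 3 higher calls, between 2 and 3 over libraries left out, and went from 0 lower calls to 1 without the fold threshold. Over all genes, 539 higher and 11 lower calls became 281 and 6 with a mean value of at least 50, 174 and 7 under limma without the trend, and 831 and 197 without the fold threshold. They ranged from 168 to 546 and from 4 to 13 over libraries left out. Lower calls were 23 after quantile normalization and 6 with DESeq2, which made 421 higher calls. With a library left out, its group has 1 library, assumed to vary like the other group. With the replicate number as a block 576 genes were higher and 15 lower; it moved no count of the lists past 1.5 times. The labels do not say what same-numbered libraries share beside the number, and their deviations were hardly related (r = 0.01 across 14780 genes, which are not independent). *Plagl1* was called in 13 and *Igf2* in 12 of 15 alternative fits, both higher in all 15. *H19* was higher in 11 of 14. *Igf2r* and *Cdkn1c* turned from -0.01 to between 0.02 and 0.05 with equal totals or quantile normalization. Without the first *S100A4* null library they turned to 0.007 and 0.005. *Igfbp2* and *Igfbp4* were called in all 15. *Nap1l5*, *Rasgrf1*, *Dio3* and *Igf1* lost the call under limma without the trend and without the first *S100A4* null library, and *Rasgrf1*, *Dio3* and *Igf1* also without the second. *Meg3* lost it without the first, at a log2 fold change of 0.99. The causes were not tested.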
